A study of Mus musculus with 8 samples.

Results

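The mitochondrial ribosomal protein genes were taken as all mouse RefSeq protein-coding genes whose symbol is Mrpl or Mrps followed by a number and, in some, a letter, without pseudogenes. This gave 78 of the 21000 protein-coding genes with a curated transcript, 49 named Mrpl for the large subunit and 29 named Mrps for the small subunit, spread over 17 chromosomes. The rule uses symbols and no measured value. A peak was assigned to a gene when at least 1 bp of it lay in the promoter, here the stretch that begins 1 kb before a transcription start site (TSS) and ends 100 bp after it.

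All libraries were made from the total epidermis of wild-type P0.5 mice, newborns of postnatal day 0.5. MOF (KAT8, an acetyltransferase of histone H4) was mapped by ChIPseq on fixed chromatin, and Rfx2 (a DNA-binding regulator of ciliary genes that reads the X-box motif), H3K4me3 (a mark of active promoters) and H3K27ac (a mark of active promoters and enhancers) by Cut&Run. Of 8 samples for 6 antibodies, the peak lists of 1 library each for these 4 targets were used, and the other libraries were not analysed here. It is uncertain which of the H3K4me3 libraries gave its list.

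With 1 library per target there was no spread between replicates and no test. Each share is given with an exact 95% interval, which covers counting error over genes only. Depth is not in the lists, but the study states fewer mapped reads for Rfx2 than for MOF, H3K4me3 or H3K27ac. Total epidermis is a mixture of cells, and a strong peak in few cells and a weak peak in many cannot be told apart. The lists held 17546 MOF, 337 Rfx2, 27039 H3K4me3 and 30736 H3K27ac peaks. The MOF list is longer than the number of MOF peaks that the study states, and whether it is the final call is not known. With the 50% of its regions that had the highest scores, the share of members with MOF described next was 55.1% in place of 71.8%. Of 12 epidermal marker genes, 7 had H3K4me3, 6 had H3K27ac and 1 had MOF (Krt14) at the promoter, while Krt1, Krt10, Lor and Ivl had no peak of any list. Of 14 markers of fibroblasts, endothelium, immune cells, melanocytes and neurons, 6 had H3K4me3, 2 had MOF (Col1a2 and Pdgfra) and 1 had H3K27ac (Pmel). Over all protein-coding genes the shares were 60.6% for H3K4me3, 50% for H3K27ac and 26.6% for MOF. The epidermal markers, at 58.3%, 50% and 8.33%, did not stand above these.

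Mitochondria carry their own ribosome, which translates the few proteins that mitochondrial DNA encodes, core subunits of the electron transport chain and of ATP synthase. Its RNAs come from mitochondrial DNA, but all of its proteins are encoded in the nucleus, made in the cytosol and imported. Some of these proteins descend from those of the bacterial ribosome and others are found only in mitochondria. Symbols do not always follow the structure: the proteins of Mrps18a and Mrps30 sit in the large subunit, that of Mrps36 has since been assigned to a metabolic enzyme complex, and Dap3, Ptcd3, Aurkaip1, Chchd1 and Gadd45gip1 encode mitoribosomal proteins under other names.

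Promoter sequences are shown for 5 members, chosen for a high MOF score, for the lack of MOF or for a shared start region. They run 5′ to 3′ on the strand of the gene, from 250 bases before the start to 30 bases into the transcript (RefSeq, GRCm38.p6), and capitals mark matches to the motifs described further on. Mrpl20 (chr4:155802628-155802907, plus strand) and Mrpl52 (chr14:54426659-54426938, plus strand) had the highest MOF scores. Mrpl16 (chr19:11770165-11770444, plus strand) and Mrpl10 (chr11:97041332-97041611, plus strand) had the highest H3K4me3 among members without a MOF peak. From the promoter of Mrpl46 (chr7:78783060-78783339, minus strand) Mrps11 also starts, in the other direction. It was added after its values were seen. For Mrpl54, the member with an Rfx2 peak, no sequence is shown.
Mrpl20: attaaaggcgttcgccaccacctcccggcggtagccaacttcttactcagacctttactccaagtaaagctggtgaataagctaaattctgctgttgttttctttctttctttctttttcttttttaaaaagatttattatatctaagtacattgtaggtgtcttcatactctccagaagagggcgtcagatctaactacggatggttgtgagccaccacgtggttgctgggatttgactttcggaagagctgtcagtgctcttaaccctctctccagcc
Mrpl52: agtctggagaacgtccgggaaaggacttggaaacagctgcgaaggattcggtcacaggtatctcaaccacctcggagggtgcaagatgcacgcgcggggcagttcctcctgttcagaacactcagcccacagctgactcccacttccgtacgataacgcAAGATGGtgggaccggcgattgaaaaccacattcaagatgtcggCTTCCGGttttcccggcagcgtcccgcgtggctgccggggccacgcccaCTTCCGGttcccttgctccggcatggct
Mrpl16: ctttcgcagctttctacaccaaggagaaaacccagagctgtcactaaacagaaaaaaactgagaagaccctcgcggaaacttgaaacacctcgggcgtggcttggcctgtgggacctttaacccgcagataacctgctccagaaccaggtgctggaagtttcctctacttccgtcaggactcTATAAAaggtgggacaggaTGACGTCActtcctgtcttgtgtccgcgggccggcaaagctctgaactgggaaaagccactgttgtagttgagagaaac
Mrpl10: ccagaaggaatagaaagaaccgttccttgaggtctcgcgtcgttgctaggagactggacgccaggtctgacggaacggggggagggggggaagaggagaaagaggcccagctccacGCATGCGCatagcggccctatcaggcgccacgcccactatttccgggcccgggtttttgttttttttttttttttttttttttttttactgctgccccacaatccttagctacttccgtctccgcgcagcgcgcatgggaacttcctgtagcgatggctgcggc
Mrpl46: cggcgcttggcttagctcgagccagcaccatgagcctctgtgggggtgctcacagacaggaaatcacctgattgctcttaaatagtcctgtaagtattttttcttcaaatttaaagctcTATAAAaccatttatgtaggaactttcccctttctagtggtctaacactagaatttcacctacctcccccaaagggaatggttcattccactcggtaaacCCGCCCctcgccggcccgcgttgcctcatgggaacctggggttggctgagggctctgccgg

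MOF was found at the promoter of 56 of the 78 members (71.8%, 95% interval 60.5 to 81.4), against 26.6% of all protein-coding genes. H3K4me3 was found at all 78 members (interval 95.4 to 100), against 60.6% of all protein-coding genes. H3K27ac was found at 77 members (98.7%, interval 93.1 to 99.97), against 50% of all protein-coding genes, and the member without it was Mrpl20. Rfx2 was found at 1 member, Mrpl54 (1.28%, interval 0.0325 to 6.94), against 1.41% of all protein-coding genes, a share that the interval of the members includes. MOF, H3K4me3 and H3K27ac occurred together at 55 members (70.5%), against 24.05% of all protein-coding genes. Both marks without MOF were found at 22 members (28.2%, interval 18.6 to 39.5), against 25.05%, a share that the interval includes. No member lacked a peak of every list, whereas 7911 of all protein-coding genes (37.7%) did.

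**Figure D1:**
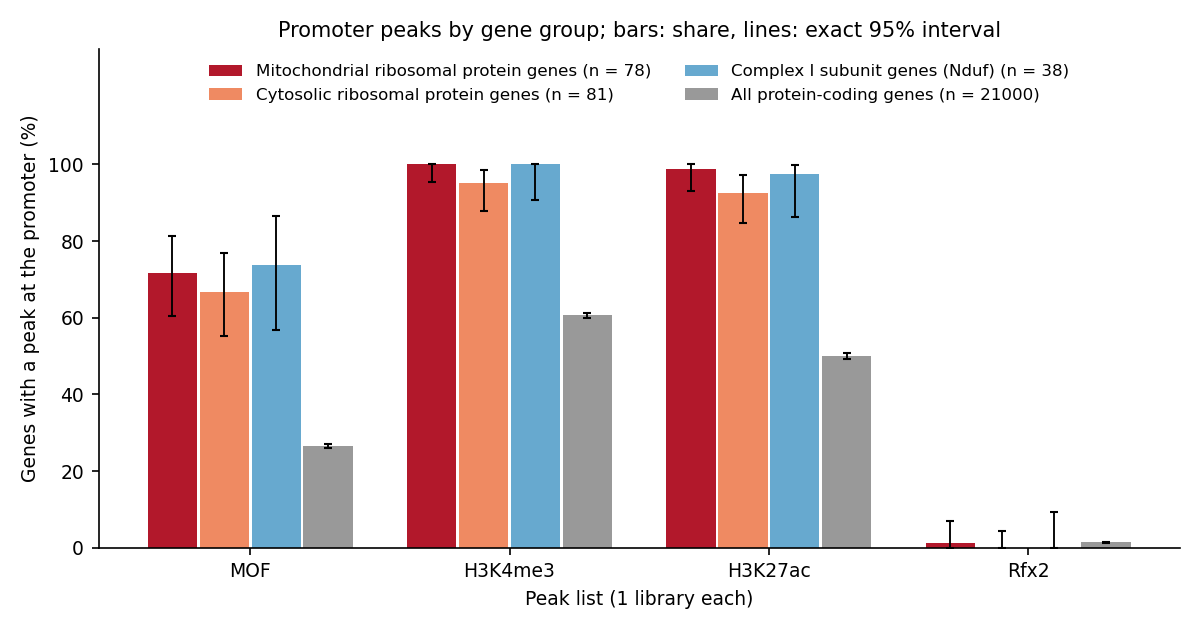
Share of genes with a peak at the promoter (%, bars) for each peak list, in 78 mitochondrial ribosomal protein genes, 81 cytosolic ribosomal protein genes, 38 complex I subunit genes and all 21000 protein-coding genes; lines are exact 95% intervals over genes. The MOF bar of the members stands at 71.8% and that of all protein-coding genes at 26.6%, while the intervals of the 3 smaller groups overlap in every list.

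Since MOF peaks and H3K4me3 peaks often lay at the same promoters, the members were also compared with other genes that had H3K4me3. Of all protein-coding genes with H3K4me3, 42.4% had MOF. Without the members, 5342 of the other 12657 genes did (42.2%), so the share of the members was higher by 29.6 percentage points (95% Newcombe interval 18.7 to 38.4). Against genes with both H3K4me3 and H3K27ac the difference was 22.6 points (interval 11.7 to 31.6).

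Members whose H3K4me3 peak was wider had MOF more often, as did other genes. All genes with H3K4me3 were divided into 5 classes of equal size by the width of the highest promoter peak. In the narrowest class, from 200 to 857 bp, 0 of 3 members (Mrpl22, Mrpl33 and Mrpl54) had MOF, and 20.8% of other genes did. In the next class 17 of 26 members had MOF (65.4%) against 36.6%, and in the middle class 16 of 23 (69.6%) against 46.1%. In the 2 widest classes, above 1441 bp, 17 of 19 (89.5%) and 6 of 7 (85.7%) did, against 51.2% and 56.4%. The members were thus above the other genes in 4 of 5 classes. With the other genes weighted to the widths of the members, their share was 44.1% and the difference 27.7 points.

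By H3K4me3 fold enrichment there was no such order. All 8 members in the lowest of 5 classes had MOF, against 37.7% of other genes there, and in the highest class 21 of 28 did (75%), against 40.4%. In the class from 5.83 to 7.39, 4 of 9 members had MOF, close to the 44.1% of other genes. Weighting by fold enrichment gave a difference of 29.7 points. Both weightings were chosen after seeing the data.

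**Figure D2:**
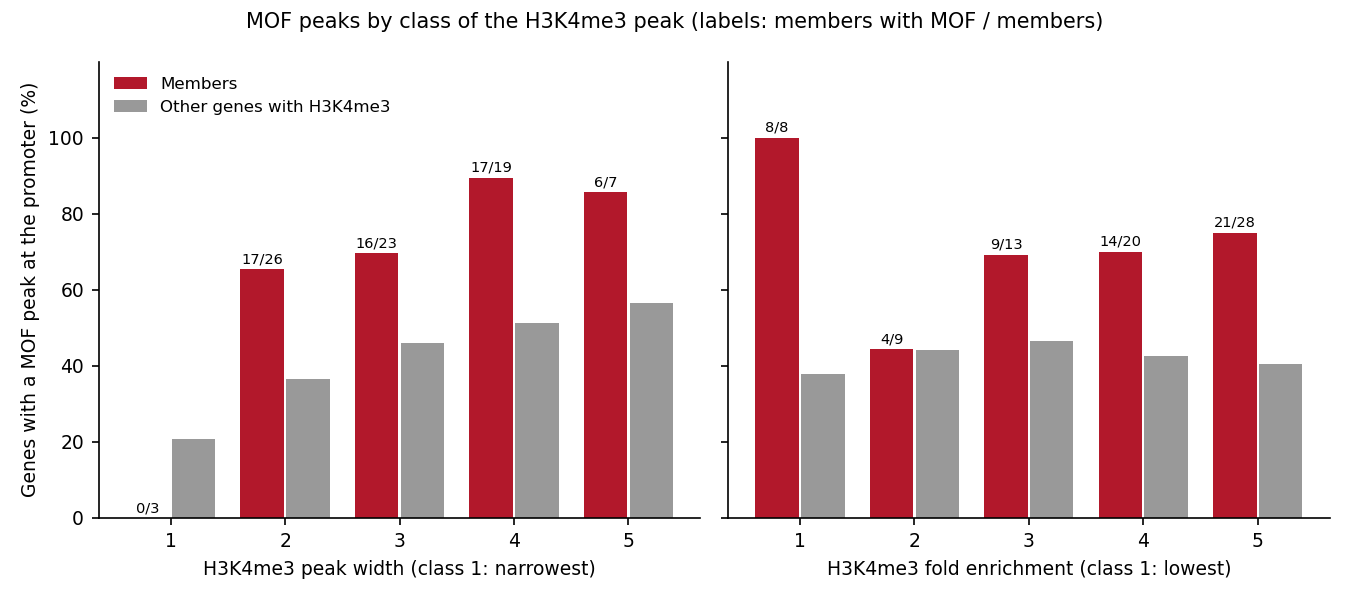
Share of genes with a MOF peak at the promoter (%) in 5 classes of H3K4me3 peak width (left, class 1 the narrowest) and of H3K4me3 fold enrichment (right, class 1 the lowest), for members (red, with the number that had MOF over the number in the class) and other genes with H3K4me3 (grey). From width class 2 on the members stand above the other genes, and class 1 holds 3 members, none with MOF.

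Other gene groups of the same kind had similar MOF shares. Among the cytosolic ribosomal protein genes, which encode the ribosome outside mitochondria, 54 of 81 had MOF (66.7%), and 54 of the 77 with H3K4me3 (70.1%). The members differed from those with H3K4me3 by 1.67 points (interval -12.5 to 15.7). Among the Nduf genes, which encode subunits of complex I of the electron transport chain, 28 of 38 had MOF (73.7%), a difference of -1.89 points (interval -17.6 to 16.1). At this number of genes, differences of up to about these bounds were not detectable.

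The 56 members with MOF shared 55 distinct MOF peaks, since Mrpl46 and Mrps11 lay under 1 peak. The MOF score, whose scale is not stated and which is used only to rank regions within its list, ran from 246 to 2232 with a median of 796 (interval 659 to 885). The median of all protein-coding genes with a MOF peak was 653. As a percentile among those genes the median member stood at 66.5 (interval 50.5 to 75.2), with the middle 50% of members between 40.5 and 84.7.

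The 5 highest scores belonged to Mrpl20 (2232), Mrpl52 (2083), Mrpl48 (1546), Mrps18b (1439) and Mrpl40 (1259). Mrpl20 and Mrpl52 lay above 99% of protein-coding genes with MOF (percentiles 99.5 and 99.3). The 5 lowest belonged to Mrpl34 (246), Mrpl13 (357), Mrpl45 (359), Mrpl2 (367) and Mrpl19 (387). Mrpl2 encodes a protein of the catalytic core of the large subunit and Mrpl45 one that attaches the ribosome to the inner membrane. Mrpl34 stood at percentile 0.152, near the bottom of the list, with a region 1744 bp wide centred 556 bp upstream of its start. The lowest and highest scores thus both came from genes with bacterial counterparts, Mrpl34 and Mrpl20.

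MOF peaks at members were not wide. Their median width was 854 bp (interval 782 to 1022), against 1008 bp over all protein-coding genes with MOF, and as a percentile the median member stood at 38.0 (interval 32.5 to 51.0). The widest were those of Mrps18c (2293 bp), Mrpl40 (2197 bp) and Mrpl41 (2044 bp), and the narrowest was that of Mrps17 (202 bp). The 3 widest all lay at promoters shared with another gene: Helq, a DNA helicase, starts 159 bp from Mrps18c, Hira, a histone chaperone, 113 bp from Mrpl40, and Pnpla7, a lysophospholipase, 935 bp from Mrpl41. The peak of Mrpl52 (370 bp) combined a high score with a narrow region. Across the 56 members, the rank correlation between MOF score and width was 0.19 (Spearman, a description, with both values read from the same region).

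MOF sat on the start site itself. The peak covered a TSS in 54 of the 56 members (96.4%, interval 87.7 to 99.6), against 86.6% of all protein-coding genes with MOF, 98.1% of cytosolic ribosomal protein genes with MOF and 92.9% of Nduf genes with MOF. The stretch of inner blocks of the region, the part the peak caller marked within it, covered a TSS in 43 members (76.8%, interval 63.6 to 87.0), against 53.1%, 79.6% and 71.4% in the same order, so the cover of the start was not particular to the members. The median centre lay 36 bp upstream of the start (interval -109 to 18), against 25 bp downstream over all genes with MOF. It turned with the kind of promoter: in the 24 members whose promoter is shared with a gene on the other strand it was -118 bp (interval -244 to -43), and in the other 32 it was 27 bp downstream (interval -44 to 90), close to all genes. The centre fell upstream of the gene in 32 members, in exon 1 in 12, in intron 1 in 11 and in exon 3 in 1, Mrps34. The 2 exceptions to the cover of a TSS were Mrps17, whose peak began 11 bp into the gene, and Mrpl20, whose peak began 18 bp into it.

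**Figure D3:**
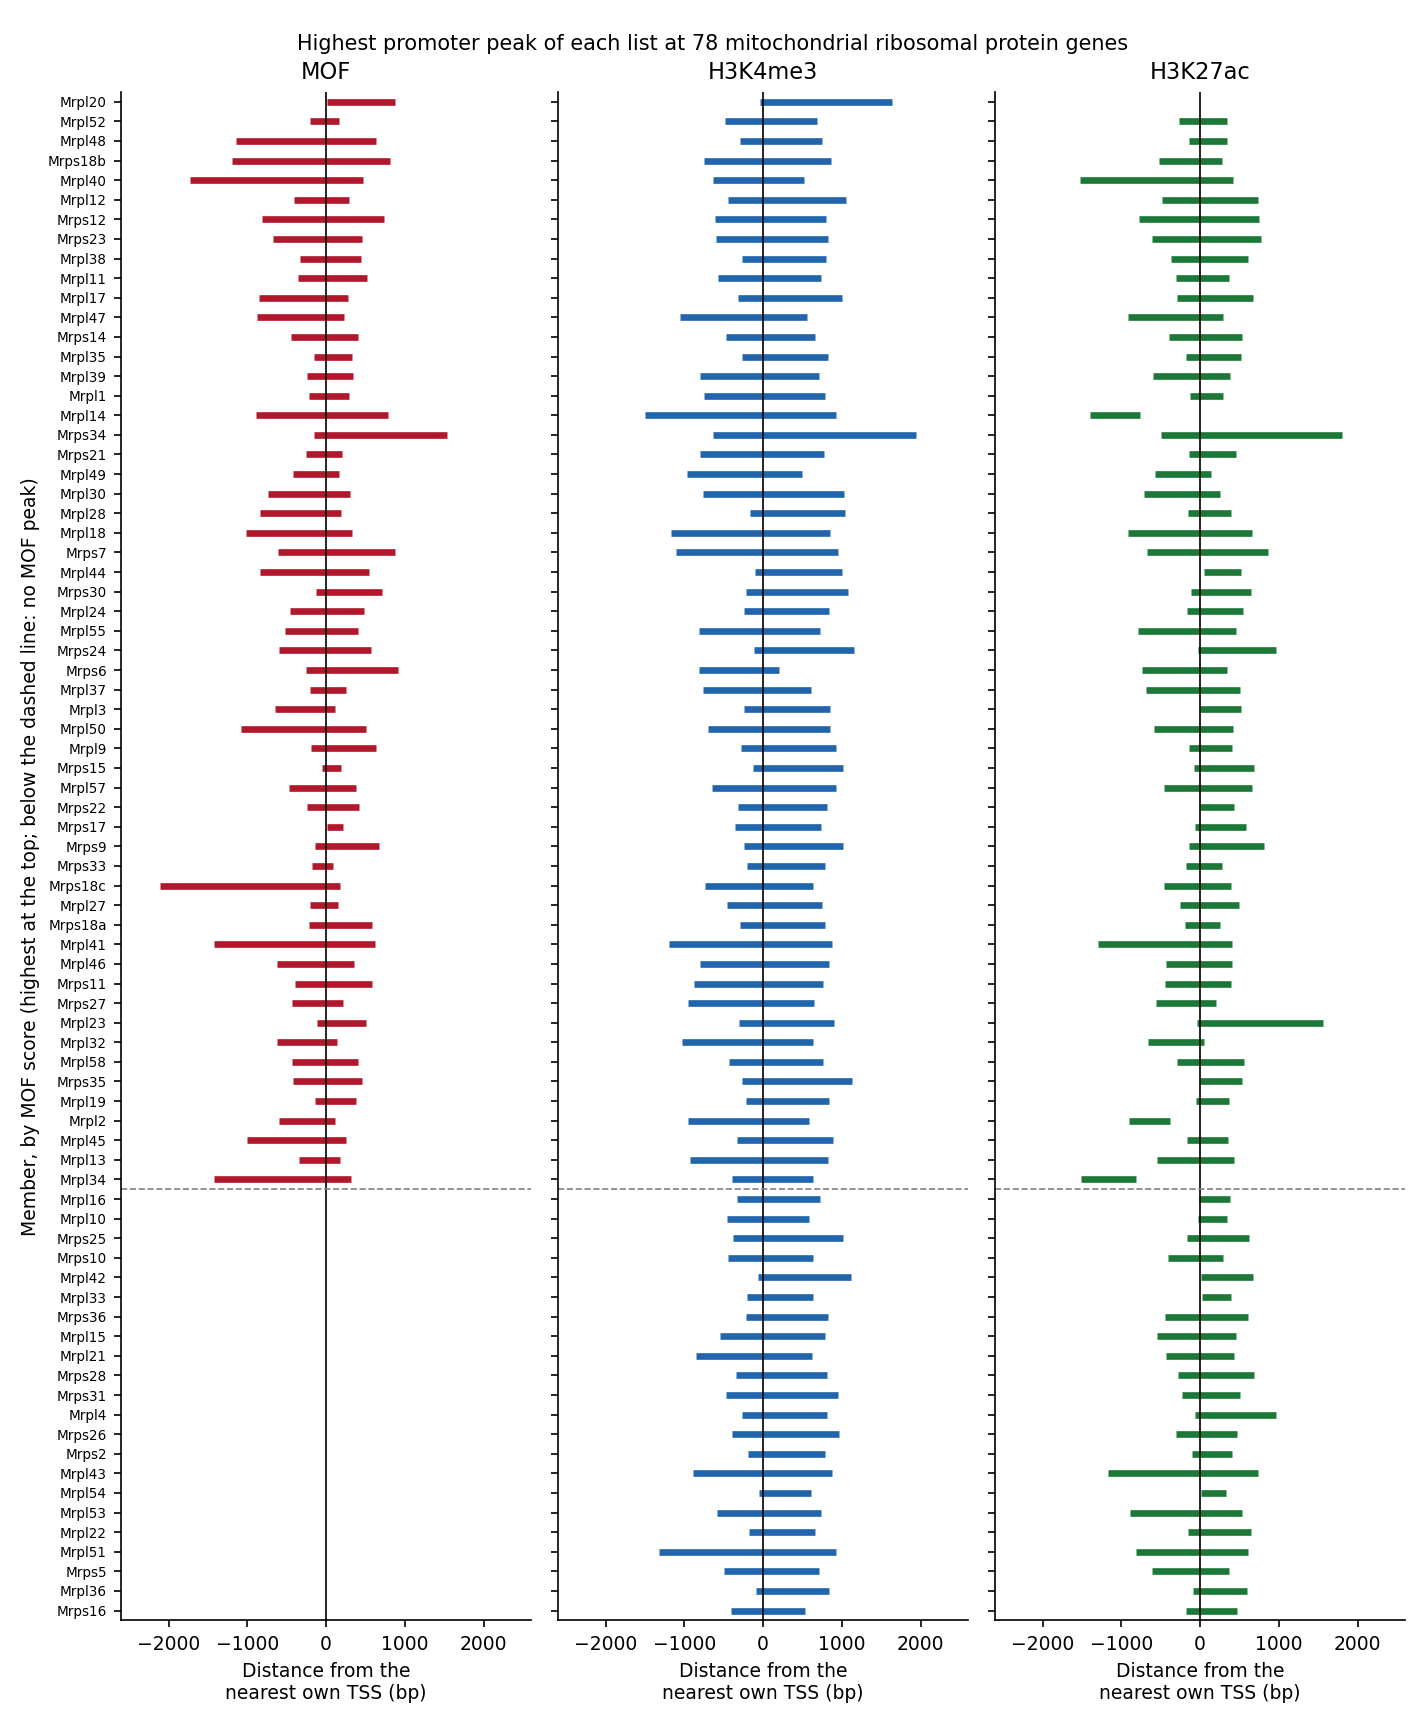
Extent of the highest promoter peak of MOF, H3K4me3 and H3K27ac (horizontal bars) against the nearest TSS of each of the 78 members (x axis in bp, negative upstream, the direction of transcription to the right). Members are ordered by MOF score, and the 22 below the dashed line had no MOF peak; every H3K4me3 bar and most others cross the start, Mrpl20 has no H3K27ac bar, those of Mrpl2, Mrpl14 and Mrpl34 lie upstream, and those of 6 more begin 3 to 52 bp downstream.

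Mrpl20 had its MOF centre and H3K4me3 summit far inside the gene, though its H3K4me3 peak covered the start. Its MOF region (chr4:155802896-155803757) was centred 448 bp downstream of the annotated start, in intron 1, and its H3K4me3 summit lay 745 bp downstream, in exon 2. Its nearest H3K27ac peak (chr4:155803434-155804080, fold enrichment 8.72) began 556 bp downstream, beyond the promoter window. RefSeq lists 1 curated start for the gene. Other members had a centre or summit far inside too. The MOF centre of Mrps34 lay 694 bp downstream, and in Mrps24 the H3K4me3 summit lay 516 bp and the H3K27ac summit 555 bp downstream. The printed sequence had 43.2% G and C and no match to any of the 8 motifs searched, though a CCAAT box begins just past its end, 30 bases after the start.

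The 22 members without MOF were Mrpl4, Mrpl10, Mrpl15, Mrpl16, Mrpl21, Mrpl22, Mrpl33, Mrpl36, Mrpl42, Mrpl43, Mrpl51, Mrpl53 and Mrpl54 of the large subunit, and Mrps2, Mrps5, Mrps10, Mrps16, Mrps25, Mrps26, Mrps28, Mrps31 and Mrps36. All of these had both H3K4me3 and H3K27ac. Mrpl10 encodes a protein of the stalk, which binds translation factors, and Mrpl22 one that lines the exit tunnel of the nascent chain. In 2 of them a MOF peak lay just inside the gene and beyond the window: 281 bp downstream in Mrps28 (score 339) and 407 bp downstream in Mrps36 (score 1063). In the other members without MOF the nearest MOF peak lay from 2869 bp (Mrpl22) to 164241 bp (Mrpl21) away. The median over all 22 was 13184 bp, so for most the absence did not depend on the edge of the window.

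Members with and without MOF had overlapping levels of both marks. The median H3K4me3 fold enrichment was 9.55 (interval 8.80 to 10.7) in the 56 with MOF and 9.85 (interval 7.75 to 11.9) in the 22 without. The median H3K27ac fold enrichment was 8.65 (interval 7.51 to 9.83) in the 55 with MOF and H3K27ac and 7.90 (interval 7.07 to 9.86) in those without MOF. The H3K4me3 peaks of members with MOF were wider, with medians of 1347 bp (interval 1207 to 1507) and 1116 bp (interval 976 to 1367), but these intervals overlapped too.

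Rfx2 met the members at Mrpl54, which had no MOF. Its Rfx2 peak (chr10:81266705-81266892) lay 34 bp downstream of the start on the minus strand, with its summit 107 bp into the gene, in exon 1. It was among the weakest of the list: the fold enrichment was 4.49, against a median of 7.29 at all 296 genes with Rfx2, percentile 2.87, and the −log10 q-value was 1.47 where the lowest in the list was 1.32. The H3K4me3 peak of Mrpl54 (657 bp) and its H3K27ac peak (320 bp) were the narrowest of each among the members. The next nearest Rfx2 peak to any member lay 15807 bp away, from Mrpl53, and the median distance was 1106899 bp. The X-box was matched in 1 of 69 member promoters, that of Mrpl2 (position -128 from its start), which had no Rfx2 peak.

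Taken over all members, both active marks stood above the median of genes with the mark. The H3K4me3 fold enrichment of the highest promoter peak ran from 3.91 to 14.4 with a median of 9.55 (interval 8.80 to 10.5), against 8.11 over all protein-coding genes with H3K4me3. The median percentile was 69.4 (interval 59.9 to 79.1). The H3K27ac fold enrichment ran from 3.72 to 15.4 with a median of 8.33 (interval 7.54 to 9.55), against 6.78, and the median percentile was 75.4 (interval 63.9 to 87.2). Cytosolic ribosomal protein genes stood lower in both, at median percentiles of 35.3 (interval 31.1 to 42.2) and 47.9 (interval 35.1 to 56.9), and these intervals did not overlap those of the members. Nduf genes, at 59.2 (interval 41.5 to 71.6) for H3K4me3 and 75.4 (interval 56.7 to 82.9) for H3K27ac, had intervals that overlapped those of the members in both.

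Among the members, the H3K4me3 level differed between kinds of promoter. Peak heights and widths were not split in this way for other genes, so whether the contrast is particular to the members is not known. In the 30 members with a head-to-head gene, one that starts close by on the other strand, the median percentile was 52.4 (interval 36.7 to 66.0), and in the other 48 it was 81.8 (interval 71.7 to 90.0). Width ran the other way, with median percentiles of 70.1 (interval 62.6 to 74) and 37.1 (interval 33.3 to 42.2). For H3K27ac the height intervals overlapped, with medians of 69.8 (interval 60.9 to 86.4) and 81.2 (interval 63.5 to 89.3).

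The highest H3K4me3 was at Mrpl44 (14.4), Mrpl16 (14.3) and Mrpl10 (13.7), and the lowest at Mrpl49 (3.91), Mrpl52 (4.67) and Mrps18b (4.80). The highest H3K27ac was at Mrpl44 (15.4), Mrpl48 (13.5) and Mrpl27 (13.0), and the lowest at Mrps18b (3.72), Mrpl22 (4.32) and Mrpl52 (4.40). Mrpl44, whose product belongs to a family of double-strand RNA nucleases, was thus first in both marks, at percentiles 98.0 and 99.9. Mrpl52 and Mrps18b, among the 5 highest MOF scores, were among the 3 lowest in both marks. Over all 56 members with MOF, however, the rank correlation between MOF score and H3K4me3 fold enrichment was -0.14, and over all protein-coding genes with both it was -0.03.

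The marks moved together across the members. The rank correlation of H3K4me3 and H3K27ac fold enrichment was 0.51 over 77 members, against 0.44 over 10310 protein-coding genes with both. Taller H3K4me3 peaks were narrower, with a rank correlation of -0.45 over 78 members, against -0.21 over 12735 genes. These are descriptions over genes of 1 library per mark, and no p is given for them.

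**Figure D4:**
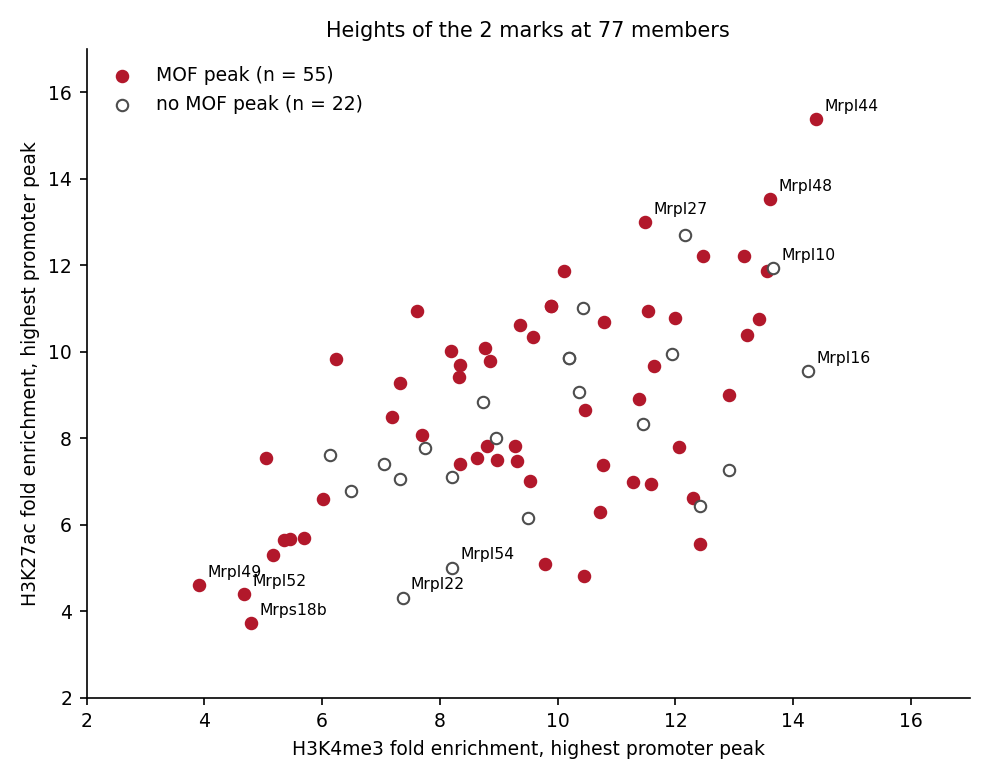
H3K4me3 fold enrichment (x axis) against H3K27ac fold enrichment (y axis) of the highest promoter peak at the 77 members with both, 1 point per gene, filled where the member had a MOF peak (55) and open where it had none (22); Mrpl46 and Mrps11 share a point. Filled and open points intermix, with Mrpl44 at the upper right (14.4 and 15.4) and Mrpl49, Mrpl52 and Mrps18b, all with MOF, at the lower left.

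H3K4me3 and H3K27ac lay slightly inside the genes. The median H3K4me3 summit was 99 bp downstream of the start (interval 72 to 145) and the median H3K27ac summit 82 bp downstream (interval 57 to 118), against 98 and 65 bp over all genes with each. H3K4me3 covered a TSS in all 78 members, against 91.1% of all protein-coding genes with H3K4me3. H3K27ac did so in 70 of 77 (90.9%, interval 82.2 to 96.3), against 88.6% of those with H3K27ac. MOF and H3K4me3 peaks overlapped in all 56 members with MOF, against 98.9% of all protein-coding genes with both. In 37 of the 56 (66.1%, interval 52.2 to 78.2) the MOF region lay wholly inside the H3K4me3 peak. Over all genes with both this share was 52.4%, which the interval just includes. The MOF region lay wholly inside the H3K27ac peak in 14 of 55 (25.5%, interval 14.7 to 39), against 24.7% of all genes with both. The members' H3K4me3 peaks had a median width of 1290 bp, against 1307 bp over all genes, and their H3K27ac peaks 790 bp against 901 bp.

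The MOF share did not separate the parts of the ribosome. It was 73.5% of the large subunit (36 of 49) and 69.0% of the small subunit (20 of 29), a difference of 4.50 points with an interval from -14.9 to 25.4. With Mrps18a and Mrps30 counted with the large subunit it was 7.84 points. Of 45 members with a bacterial counterpart in the uniform naming of ribosomal proteins, 33 had MOF (73.3%). Of the 33 without one by that naming, which include Mrps36, 23 did (69.7%), a difference of 3.64 points (interval -15.7 to 23.8). Both intervals include 0 and are wide, so differences within them were not detectable. The members without MOF thus came from both subunits and both classes.

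Many members shared their promoter with a gene on the other strand. A head-to-head gene, one that starts within 1 kb on the other strand and runs away from the member, was annotated for 30 of 78 members (38.5%, interval 27.7 to 50.2), against 11.6% of all protein-coding genes and 17.9% of those with H3K4me3. The share was 34.2% (interval 19.6 to 51.4) in Nduf genes and 17.3% (interval 9.78 to 27.3) in cytosolic ribosomal protein genes, so it was not particular to the members. The starts were within 300 bp of each other in 25 members, with a median distance of 122 bp over the 30. For 27 the partner was protein-coding, and for Mrpl55, Mrps21 and Mrps26 it was a long noncoding RNA gene.

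The partners have varied roles, and those given here are examples chosen after their values were seen. Mrpl46 and Mrps11, a large and a small subunit gene, start 42 bp apart, and their common MOF region had a score of 494. Mrps12, which encodes a protein of the decoding centre, starts 147 bp from Sars2, the mitochondrial seryl-tRNA synthetase. Mrpl47 starts 308 bp from Ndufb5, a complex I subunit, Mrpl43 116 bp from Twnk, the helicase that replicates mitochondrial DNA, and Mrps27 108 bp from Ptcd2, a mitochondrial RNA-binding protein. Mrpl49 starts 192 bp from Fau, which encodes a cytosolic ribosomal protein. Mrpl18 starts 238 bp from Tcp1, a chaperonin subunit, and Mrpl32 205 bp from Psma2, a proteasome subunit.

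Of members with a head-to-head gene, 24 of 30 had MOF (80%, interval 61.4 to 92.3), and of those without, 32 of 48 (66.7%, interval 51.6 to 79.6). The difference of 13.3 points had an interval from -7.53 to 30.9, which includes 0, and was 2.5 points with the 50% of MOF regions of highest score. Among other protein-coding genes with H3K4me3, the same split gave 61.6% and 38.0%, a difference of 23.6 points (interval 21.4 to 25.8). The members without such a partner were 28.7 points above other genes without one (interval 14.5 to 40.4), and those with a partner 18.4 points above other genes with one (interval 0.991 to 29.1). Of the 24 members with MOF and a partner, 22 had a protein-coding one, and all 22 of these partners had MOF as well. The other 2, Mrpl55 and Mrps21, had a noncoding one, which was not examined. The promoter windows of such partners overlap, so both genes are often counted from 1 peak. The partners of the 6 without MOF are Lrrc46 (Mrpl10), Ighmbp2 (Mrpl21), Twnk (Mrpl43), Ncapd2 (Mrpl51), Zfp661 (Mrps5) and a noncoding gene (Mrps26), and the 5 that encode proteins had both marks and no MOF.

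Member promoters were searched for 8 short motifs in the 300 bases from 250 before to 50 after the start given in the RefSeq promoter table, on both strands. For Mrps23, whose starts lie far apart, this was the downstream start, which had the MOF peak. Sequences were at hand for 69 members and for 16853 protein-coding genes. The members not covered were Mrpl4, Mrpl13, Mrpl15, Mrpl19, Mrpl38, Mrpl54, Mrps28, Mrps34 and Mrps35. The ETS core CCGGAAG, read by factors of the ETS family, occurred in 24 of 69 (34.8%, interval 23.7 to 47.2), against 12.2% of all promoters and 18.5% of those with H3K4me3. The NRF1 core GCGCATGC, read by a regulator of nuclear genes for mitochondria, occurred in 8 (11.6%, interval 5.14 to 21.6), against 3.73% and 5.59%. The YY1 core AAGATGG occurred in 13 (18.8%, interval 10.4 to 30.1), against 6.43% and 7.05%. For the ETS and YY1 cores the interval of the members lay above both shares, and for NRF1 it included the share of promoters with H3K4me3. In cytosolic ribosomal protein genes the ETS core occurred in 24 of 61 (39.3%) and the YY1 core in 9 (14.8%), both within the intervals of the members.

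For the other motifs the interval of the members included the share of all promoters, and for all but the Sp1 box, which was less common in members, also that of promoters with H3K4me3. The Sp1 box GGGCGG occurred in 34 (49.3%, interval 37.0 to 61.6), against 47.7% of all promoters and 67.7% of those with H3K4me3. The CCAAT box CCAAT occurred in 27 (39.1%), against 39.5% and 39.3%, and the TATA box TATAAA in 4 (5.80%), against 13.2% and 6.57%. The cyclic AMP response element TGACGTCA occurred in 2 (2.90%), against 2.40% and 3.37%, and the X-box in 1 (1.45%), against 1.56% and 1.75%. Matches of different motifs shared bases in 1 member, Mrpl17 (ETS core and Sp1 box). Median G and C content was 58.3% (interval 57 to 61.7), against 61.7% in promoters with H3K4me3, and the median ratio of observed to expected CpG was 0.818 (interval 0.730 to 0.854), against 0.776.

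For every motif the intervals of members with and without MOF overlapped. The ETS core occurred in 17 of 51 with MOF (33.3%, interval 20.8 to 47.9) and in 7 of 18 without (38.9%, interval 17.3 to 64.3), the YY1 core in 11 (21.6%) and 2 (11.1%) and the NRF1 core in 5 (9.80%) and 3 (16.7%). The widest gap was that of the CCAAT box, in 17 with MOF (33.3%, interval 20.8 to 47.9) and 10 without (55.6%, interval 30.8 to 78.5). Median G and C content was 59% (interval 57.3 to 61.7) and 57.7% (interval 51.3 to 65). Among other genes with H3K4me3 the ETS core was in 23.4% of promoters with MOF and 14.4% of those without.

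**Figure D5:**
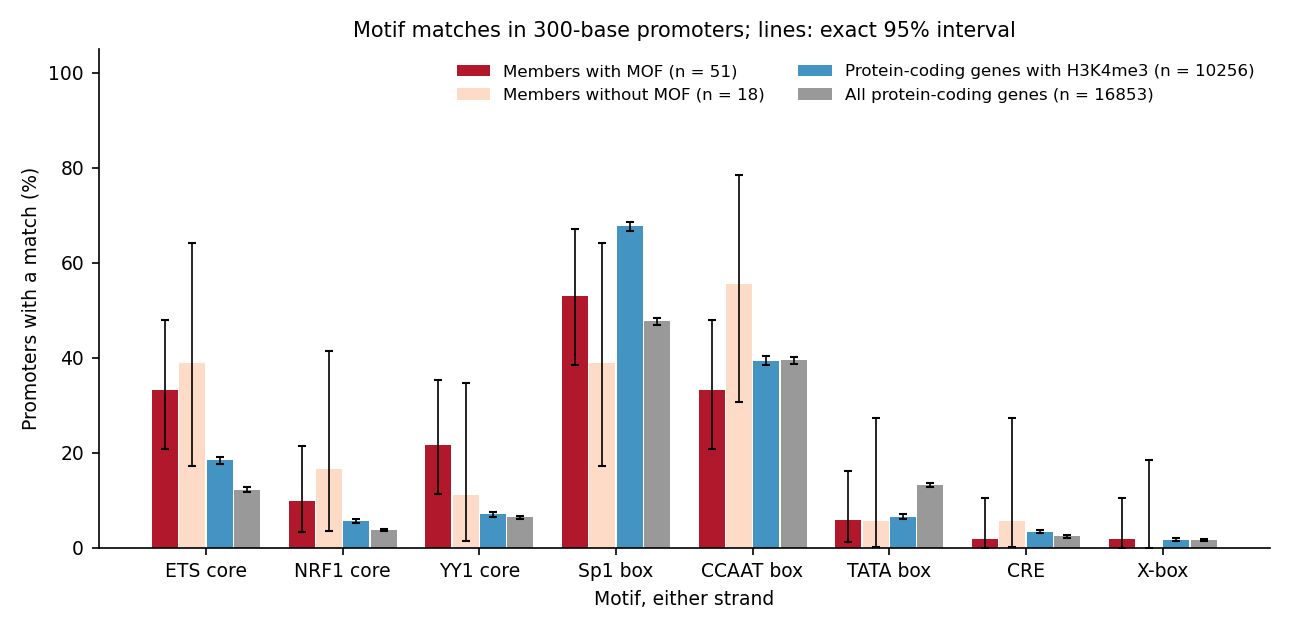
Share of 300-base promoters with at least 1 match (%, bars, either strand) to each of 8 motifs, in 51 members with MOF, 18 members without, 10256 protein-coding genes with H3K4me3 and all 16853 protein-coding genes with a sequence; lines are exact 95% intervals. The ETS core stands at 33.3% and 38.9% in the members and at 12.2% in all genes, and the intervals of members with and without MOF overlap for every motif.

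The printed promoters show the range. That of Mrpl52 holds 2 ETS cores, with their first bases 47 bases before and 2 bases after the start, and a YY1 core 91 bases before it. That of Mrpl20, with the highest MOF score, holds none in the part printed, and its CCAAT box lies just beyond. Only the last printed bases of Mrpl20 lie under its MOF region, which begins 18 bp into the gene and is centred 448 bp downstream. Mrpl16 and Mrpl10, without MOF, hold other matches: a TATA box 68 bases and a cyclic AMP response element 49 bases before the start in Mrpl16, and an NRF1 core 134 bases before it in Mrpl10. In that of Mrpl46, the start of Mrps11 lies 42 bases before the start of Mrpl46, and a TATA box and an Sp1 box lie 131 and 31 bases before it. Over the 24 members with an ETS core, 25 of 28 matches lay within 100 bases before or 50 bases after the start. Their median position was -16.5 (negative before the start), and 9 of the 15 YY1 matches lay after the start. Positions were not taken for other genes, so whether this placement is particular to the members is not known.

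Other genes of mitochondrial translation were described from 3 lists. Of the 5 mitoribosomal proteins with other names 4 had MOF, all but Dap3, which encodes a protein of the small subunit. Of 15 factors for translation and insertion of the products, 9 had MOF (60%, interval 32.3 to 83.7). Those without were Mtif3 (an initiation factor), Tufm and Tsfm (elongation factors), Mtrf1 (a release factor), Mtfmt (which formylates the initiator tRNA) and Guf1 (a GTPase of elongation). Of 25 assembly factors, which modify the ribosomal RNA or help the subunits to form, 14 had MOF (56%, interval 34.9 to 75.6). Those without were Tfb1m, Mrm1, Mtg1, Gtpbp10, Eral1, Ddx28, Ybey, Trub2, Ngrn, Rcc1l and Mpv17l2.

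Together 27 of these 45 genes had MOF (60%, interval 44.3 to 74.3), a share just below the interval of the members (60.5 to 81.4), though the intervals overlapped. All 45 had H3K4me3, and MOF was found at 26.6% of all protein-coding genes and at 42.4% of those with H3K4me3. The latter share lay within the interval of each of the 3 lists and below that of the 45 together. None had Rfx2, which allows a share of up to 7.87%. H3K27ac was found at 44, the exception being Aurkaip1. The highest MOF scores among them were those of Mtrf1l (1743), a release factor, and Mtif2 (1435), which brings the initiator tRNA to the ribosome.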

How the data were processed

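Peak lists from total epidermis of P0.5 wild-type mice were used as deposited: MOF ChIPseq (single-end) and Rfx2, H3K4me3 and H3K27ac Cut&Run (paired-end), 1 library each. The authors aligned reads to mm10 with Bowtie2 and called peaks in each library with MACS2. No control library is stated in the sources used here. The deposited MOF list gives each region a score of unstated scale and no summit. The other deposited lists give a score, a fold enrichment (a ratio over the local background), and −log10 p-values and q-values. Read depth is not in the lists. Heights were compared only within a list, after each gene was given its highest promoter peak.

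Coordinates were used with GRCm38.p6, of which mm10 is the browser name, and 0 peaks passed a chromosome end. TSSs were those of curated RefSeq coding transcripts. Shares carry exact (Clopper-Pearson) 95% intervals, differences Newcombe intervals, and medians exact binomial intervals. These cover counting error over genes only. Python 3.11.15, scipy 1.17.1 and pandas 2.3.3 were used. The overlap step was checked against bedtools 2.31.1, which found the same genes in all 4 lists, and tested on simulated data, where 200 of 200 planted genes were found.

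The members, gene lists and motifs were chosen with earlier results of these data known. Named are members without MOF, H3K4me3 or H3K27ac or with Rfx2, the 5 highest and 5 lowest MOF scores, the 3 highest and 3 lowest of each mark, the 3 widest MOF peaks, head-to-head partners, and genes of the companion lists without MOF. Others were chosen after their values were seen. Alternatives were other windows, thresholds, overlap rules, start sites, backgrounds and motif windows.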

Additional observations from a re-analysis of the deposited data

How the results depend on the processing

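Of 73 recomputed values over 23 results, 57 stayed within the interval of the value reported, 16 moved outside it and 0 turned in direction with an interval off 0. With the 50% of MOF regions of highest score, the MOF share of members was 55.1%, with all genes at 16.3%. The more significant 50% of Rfx2 peaks gave an Rfx2 share of 0% (all genes 0.71%). With the centre of the peak required in the window, the shares were 57.7% for MOF (all genes 16.4%) and 42.3% for H3K4me3 (all genes 27.3%). By the same rule they were 51.3% for H3K27ac (all genes 28.9%) and 0% for Rfx2 (all genes 1.16%). In windows of 1 kb or 2.5 kb both ways from the TSS the H3K27ac share was 100%, as Mrpl20 was then included. All genes stood at 51.8% and 53.5% there. The MOF difference to other genes was 45.4 points against all protein-coding genes, with or without H3K4me3. With width in place of height the median percentiles were 38.0 for MOF, 48.7 for H3K4me3 and 39.3 for H3K27ac, so the high standing of the members holds for height and not for width. With 500 bases upstream to 100 downstream, motif shares were 47.8% for the ETS core (all genes 15.4%), 53.6% for the CCAAT box (58.2%), 14.5% for the TATA box (25.02%) and 62.3% for the Sp1 box (53.9%). The differences between subunits and between classes, whose intervals include 0, were -2.39 and -2.42 points with 1 kb both ways, and the former was -5.56 points with the higher-scored 50% of MOF peaks. The difference between members with and without a head-to-head gene was 9.17 points with 1 kb both ways and 2.5 points with that 50% of MOF peaks. No paired analysis was possible because there was 1 peak list for each target, and for the same reason no replicate could be left out.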

Other observations

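Of 6 annotated pseudogenes named after members, 1 (Mrpl23-ps1) had a MOF peak and 1 (Mrpl27-ps) an H3K4me3 peak within 1 kb, and none had an H3K27ac or Rfx2 peak there.

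Several curated starts were annotated for 5 members, Mrpl2, Mrps10, Mrps12, Mrps14 and Mrps23. In Mrps23 the starts lay 10282 bp apart: at the upstream one there was H3K27ac without MOF or H3K4me3, and at the downstream one all 3 were present. In the other 4 members every start had peaks of the same lists.

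Members were on neither chromosome 12, 18, X nor Y.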
